A study of Mus musculus with 24 samples.

Results

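The data described here are 6 of the 24 arrays of the series: the 3 arrays from a control line of RAW264.7 cells after 5 h of LPS and the 3 from the same line after 3 h, joined by replicate number, since arrays of 1 number lay on 1 slide. RAW264.7 is an established mouse macrophage-like line. The control line carried a construct for chloramphenicol acetyltransferase (CAT), a bacterial enzyme, and the other line carried a construct for Tbc1d23, each kept in medium with G418. There was 1 line per construct, so a property of a line cannot be told apart from its construct. Lipopolysaccharide (LPS, from the outer membrane of Gram-negative bacteria) was given at 20 ng/ml. Arrays after 1 h and without LPS (0 h), and the same times in the Tbc1d23 line, 3 arrays each, serve as comparison. The design text calls the replicates biological, and whether each had its own culture is not stated; p-values then reflect only the spread among these arrays, which may be technical.

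LPS is sensed by TLR4, which signals through the adaptors MyD88 and TRIF. The first wave of transcripts is made by factors already in the cell, such as NF-kB and the serum response factor. It includes cytokines and the inhibitors that later shut the pathway down. TRIF also leads to interferon beta, which is secreted and acts back on the cell through its receptor and STAT factors, so interferon-stimulated genes come up in a second wave. The interval from 3 to 5 h therefore spans late gains and the fading of early induction.

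Each level below is the log2 of the processed spot signal minus the array's 75th percentile, so a difference of 1 is 2-fold. Differences are 5 h minus 3 h, with the standard error after ±, from a limma fit over all 24 arrays with the slide as a block. A gene was called where its adjusted p (Benjamini-Hochberg, over 15032 genes) was under 0.05. The share of probes well above background was 48.8 to 53.1% at 5 h and 48.9 to 52.9% at 3 h. Pairs of arrays of 1 time correlated at 0.986 to 0.992 at 5 h and 0.981 to 0.991 at 3 h. On every slide the 4 times took the same array positions, so time and position on the slide cannot be told apart.

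The labels were checked on Tbc1d23. Its brightest probe (mm9 chr16:57169122-57169181) had 3.02, 2.90 and 3.58 in the Tbc1d23 line and 3.29, 3.48 and 3.30 in the CAT line at 5 h, so the lines overlapped. At 3 h it had 3.10, 3.13 and 3.72 in the Tbc1d23 line and 3.01, 2.93 and 2.60 in the CAT line. A second probe (mm9 chr16:57170528-57171769) had -0.09, -0.08 and -0.32 in the Tbc1d23 line against -0.73, -0.47 and -0.72 in the CAT line at 5 h, with no overlap. At 3 h it had -0.21, 0.57 and 0.13 against -0.88, -0.83 and -0.78. At 0 h the second probe overlapped between the lines as well. The labels do not say which part of the transcript the construct holds, so these probes do not settle the labels, and the lines are named as labelled.

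Between 3 and 5 h the response of the CAT line was still moving. Of the genes tested, 29.1% were called, with 2070 higher at 5 h (13.8%) and 2311 lower (15.4%). A difference of at least 2-fold was found for 413 genes higher (2.75%) and 393 lower (2.61%). For 7848 genes (52.2%) the 95% interval of the difference lay within 1.5-fold, and these are called held below. Without the slide block the counts were 1016 higher and 1285 lower.

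**Figure D1:**
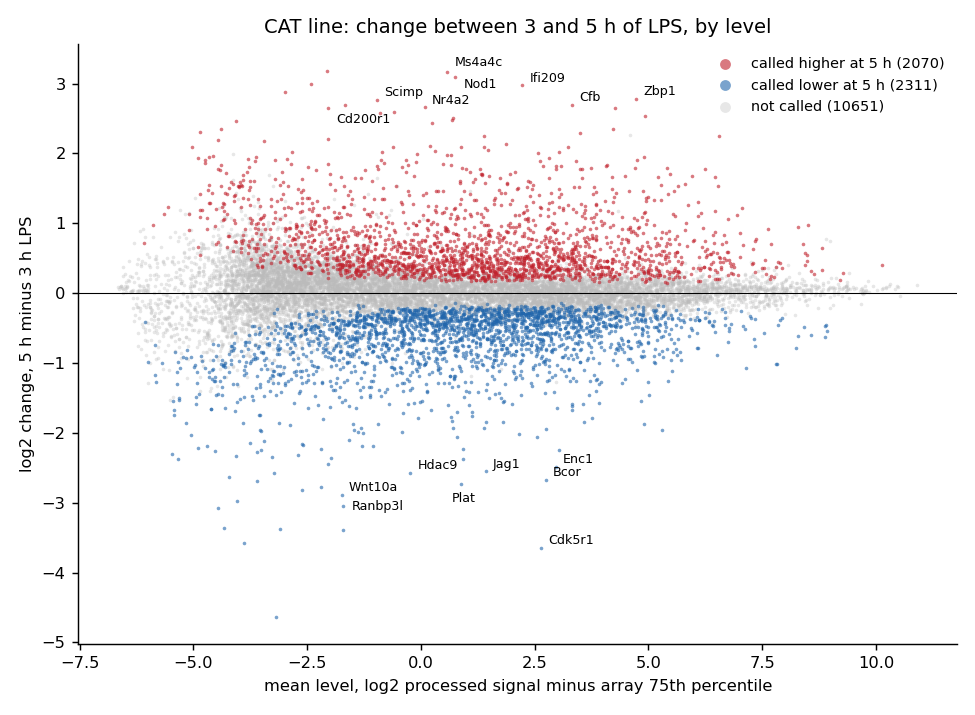
Each point is a gene of the CAT line, with its mean level over the 3 h and 5 h arrays on the horizontal axis and the log2 difference 5 h minus 3 h on the vertical axis. Red points (2070) were called higher at 5 h, blue points (2311) called lower, and grey points were not called. The labelled genes are among the largest differences in each direction.

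The largest differences are given among genes well above background on all 6 arrays. Among the rises was Nod1, a cytosolic sensor of bacterial peptidoglycan fragments. Its probe (mm9 chr6:54874007-54874066) had levels of 1.93, 2.36 and 2.57 on the 5 h arrays, against -0.85, -0.63 and -0.92 on the 3 h arrays, a difference of 3.09 ± 0.18 (adjusted p = 2.0e-08), or 8.5-fold. All 5 h values lay above all 3 h values. Zbp1, a sensor of left-handed nucleic acids that can start necroptosis (probe at mm9 chr2:173032113-173032170), had 6.09, 6.14 and 6.14 on the 5 h arrays, against 3.57, 3.42 and 3.04 on the 3 h arrays, a difference of 2.79 ± 0.14. Oasl2, of the oligoadenylate synthetase-like family, had 5.36, 5.65 and 5.74 on the 5 h arrays, against 3.06, 3.10 and 2.66 on the 3 h arrays. Cfb, factor B of the alternative complement pathway, had 4.58, 4.61 and 4.80 on the 5 h arrays, against 1.94, 2.00 and 1.96 on the 3 h arrays. All of these were above every 3 h array by more than the spread within a time. The other genes of the 12 largest such rises were Ms4a4c (3.17 ± 0.54), the PYHIN gene Ifi209 (2.97 ± 0.33), the transmembrane adaptor Scimp (2.76 ± 0.28), the inhibitory receptor Cd200r1 (2.69 ± 0.20), the nuclear receptors Nr4a2 (2.66 ± 0.16) and Nr4a1 (2.54 ± 0.12), the Cdc42 exchange factor Fgd4 (2.60 ± 0.13) and the potassium channel subunit Kcnab1 (2.57 ± 0.38). A large rise on all 3 slides was a condition of entry for these 12, so the lack of overlap between the times follows largely from the choice.

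The largest fall among genes above background was Cdk5r1, the p35 activator of the kinase Cdk5 (probe at mm9 chr11:80293826-80293885). It had 0.75, 0.83 and 0.88 on the 5 h arrays, against 4.45, 4.55 and 4.39 on the 3 h arrays, so it fell by 3.65 ± 0.10 (adjusted p = 3.5e-11), or 12.5-fold. Jag1, a Notch ligand, had 0.05, 0.33 and 0.06 on the 5 h arrays, against 2.74, 2.88 and 2.47 on the 3 h arrays and fell by 2.55 ± 0.11. Plat, tissue plasminogen activator, had -0.52, -0.14 and -0.79 on the 5 h arrays, against 2.23, 2.42 and 2.10 on the 3 h arrays. In each of these the 5 h arrays lay below all 3 h arrays, with no overlap, which follows largely from picking large falls. Other large falls were those of Ranbp3l (fell by 3.05 ± 0.10), the Wnt ligand gene Wnt10a (fell by 2.89 ± 0.44), the BCL6 corepressor Bcor (fell by 2.68 ± 0.12), the deacetylase gene Hdac9 (fell by 2.57 ± 0.12), Enc1 (fell by 2.49 ± 0.12), Oit3 (fell by 2.45 ± 0.18), the semaphorin receptor gene Plxna2 (fell by 2.37 ± 0.14) and Tmem37 (fell by 2.36 ± 0.26).

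**Figure D2:**
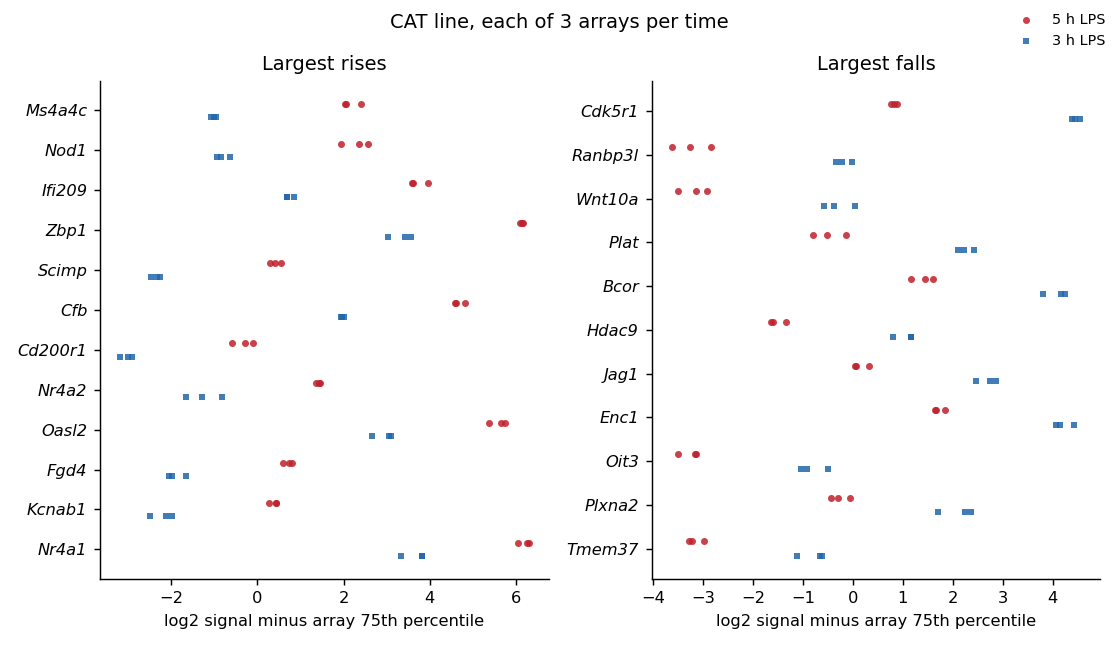
Levels on each of the 3 arrays at 5 h (red circles) and 3 h (blue squares) in the CAT line for the 12 largest rises (left) and 11 large falls (right) among genes well above background on all 6 arrays, on the log2 scale relative to the array's 75th percentile. The genes were picked for large changes in the same direction on all 3 slides. That the 2 times do not overlap for any of them follows largely from this choice.

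For genes well above background at only 1 of the times, only a bound can be given, computed from the lowest signal well above background. These genes were picked for being called and above that mark on all arrays of 1 time and none of the other. Their adjusted p is from the limma fit on all signals, dim ones included, and does not test the bound. Rises from background were led by Wfdc21, at least 2.98-fold higher at 5 h (adjusted p = 0.016, and between 0.053 and 0.11 when any 1 replicate was left out), followed by Slamf8 (at least 2.92-fold), Clec1b (at least 2.83-fold), Ifi206 (at least 2.54-fold) and Aoah (at least 2.43-fold), the enzyme that deacylates LPS. Falls to background were led by Mab21l3, at least 10.4-fold lower at 5 h (adjusted p = 5.6e-07), then Arhgap24 (at least 7.04-fold), Dgkg (at least 5.19-fold), Fry (at least 4.63-fold) and Ccl20 (at least 4.47-fold), which encodes a chemokine for CCR6-bearing cells.

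The genes that moved can be set against the level without LPS. This is a description, since these comparisons share the 3 h or 5 h arrays with the difference itself. Of the 413 genes that rose at least 2-fold, 210 were already above 0 h at 3 h, 107 were below it, and 96 were not called against it. Of the 107, 30 stood above 0 h at 5 h, 43 were still below and 34 were no longer called against it. Of the 393 that fell at least 2-fold, 184 were below 0 h at 3 h and stayed below, and 84 were not called at 3 h, 80 of them below 0 h at 5 h. The other 125 had been above 0 h at 3 h, and at 5 h 65 of them remained above, 35 were not called and 25 had gone below. Cdk5r1 had means of 0.37 at 0 h, 3.24 at 1 h, 4.47 at 3 h and 0.82 at 5 h. Tlr4, the LPS receptor, is among those that dipped and then rose toward the 0 h level, with means of 3.21 at 0 h, 2.22 at 1 h, 1.20 at 3 h and 2.93 at 5 h. So is Abcg1, the cholesterol and phospholipid exporter of the LXR program, at 5.18 at 0 h, 4.50 at 1 h, 2.85 at 3 h and 4.64 at 5 h, and the regulator of G protein signalling Rgs2, at 6.03 at 0 h, 3.41 at 1 h, 3.05 at 3 h and 5.40 at 5 h.

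Sets chosen from contrasts that do not use the difference between 3 and 5 h were then followed over the interval. The contrast of 1 h minus 0 h had 359 genes at least 2-fold higher (2.39%) and 231 lower (1.54%). Of the 359, 86 (24.0%) rose between 3 and 5 h, 118 (32.9%) fell and 155 were not called; the median difference was -0.14, against 0.03 over all genes. Of the 231, 49 rose and 26 fell, or 13 without replicate 1 and 13 without replicate 2. The mean of 3 and 5 h minus 0 h had 1322 genes at least 2-fold higher (8.79%) and 1278 lower (8.5%). These are named the lastingly higher and lastingly lower genes. The mean includes the 5 h arrays, so a member need not have differed from 0 h at 3 h. Among those higher, 514 (38.9%) rose between 3 and 5 h and 212 (16.0%) fell, with a median of 0.25. Among those lower, 513 (40.1%) fell and 185 (14.5%) rose, with a median of -0.26. Both sets were more often called in the direction of their own change than all genes, of which 13.8% rose and 15.4% fell.

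**Figure D3:**
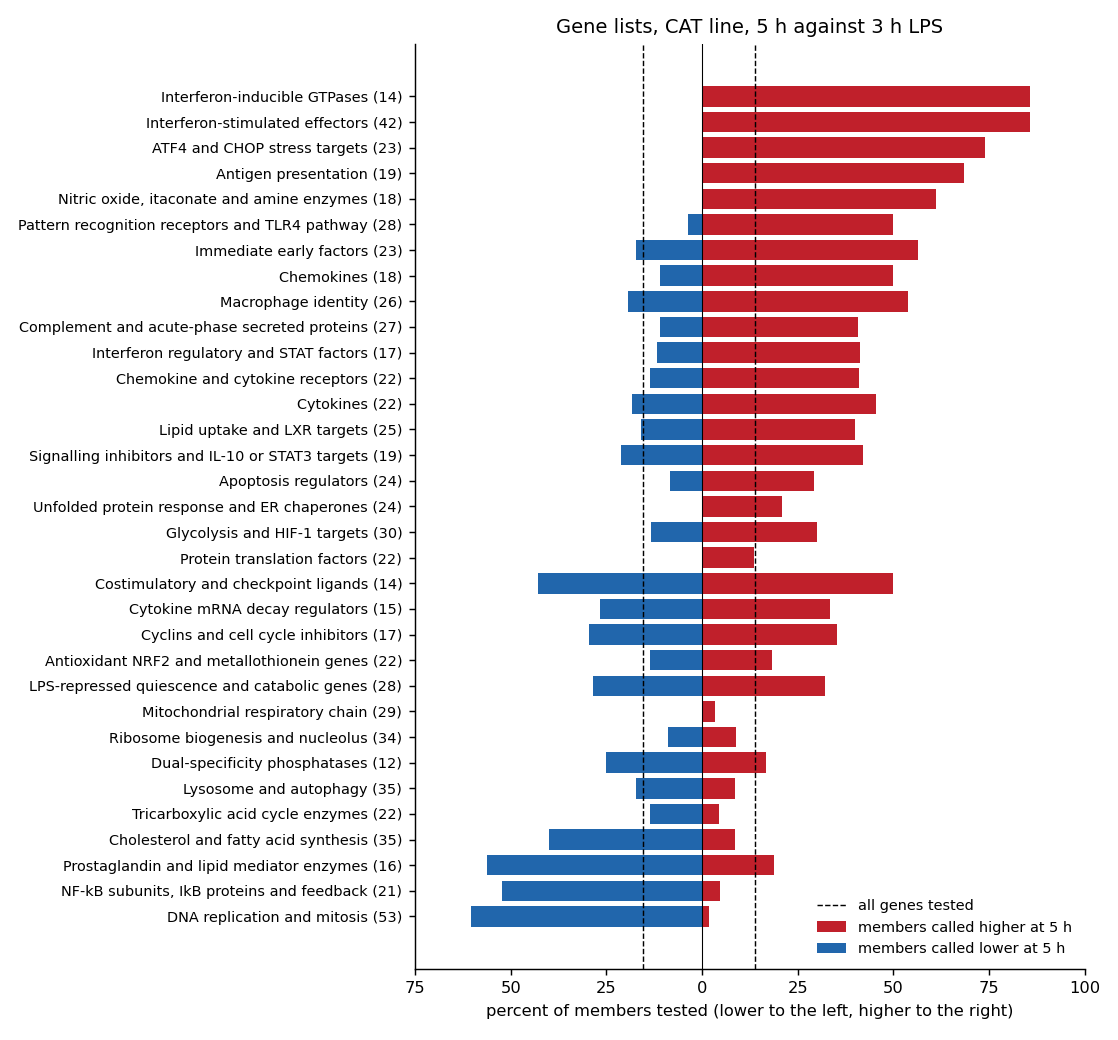
Percent of tested members called higher (red, right) or lower (blue, left) at 5 h against 3 h in the CAT line, for each gene list with at least 12 members tested. The number tested is in brackets. Dashed lines mark 13.8% and 15.4%, the shares of all genes. Interferon-stimulated effectors and interferon-inducible GTPases lie at the top and DNA replication and mitosis at the bottom.

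Interferon-stimulated effectors rose in most of their list. Of 42 members tested, 36 (85.7%) were called higher and 0 lower by limma (38 and 0 at an unadjusted p under 0.05), with a median difference of 1.21, and 26 rose at least 2-fold. At 1 h 8 of the 42 had been above 0 h and 4 below it, against 6.81% and 9.05% of all genes. At 3 h 41 were above it, against 24.5% of all genes. Ifit2, which encodes a protein that restricts viral RNA translation, had 2.79, 2.79 and 3.22 on the 5 h arrays, against 0.53, 0.87 and 1.02 on the 3 h arrays. The ubiquitin-like modifier Isg15 had a difference of 0.87 ± 0.12 and the viperin gene Rsad2 1.30 ± 0.14. Mx1, a GTPase active against influenza virus, rose by 1.90 ± 0.32, and Usp18, which removes ISG15 and restrains the receptor, by 1.53 ± 0.13. The 5 members held without a call were Oasl1, Mx2, Rtp4, Ifi27l2a and Slfn5, with differences between 0.06 and 0.23. The GTPases that the interferons induce moved alike, 12 of 14 higher and 0 lower (0 lower also unadjusted), with a median of 1.25. Gbp6, a guanylate-binding protein gene well above background on 2 of the 3 h arrays, had -0.94, -0.81 and -0.37 on the 5 h arrays, against -3.69, -3.04 and -3.35 on the 3 h arrays, and Gbp2 had 3.97, 3.94 and 4.26 on the 5 h arrays, against 1.92, 2.02 and 2.16 on the 3 h arrays. Interferon beta itself, Ifnb1, went the other way at 2.42, 2.29 and 2.30 on the 5 h arrays, against 3.36, 3.26 and 2.83 on the 3 h arrays, and fell by 0.81 ± 0.25 (adjusted p = 0.022). The call was lost without replicate 1 (adjusted p = 0.11) and without replicate 2 (adjusted p = 0.14). Ifnb1 remained far above its mean of -6.22 at 0 h. Its transcription factor Irf7 rose by 1.77 ± 0.16 and Stat3 by 1.32 ± 0.13, while Stat5a fell by 0.73 ± 0.16. Of 17 interferon regulatory and STAT factors, 7 were higher and 2 lower, or 4 lower without replicate 3 and with quantile normalization, and 1 lower with the 6 arrays alone.

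Promoters show the sequence that the interferon-activated complex ISGF3 and the IRF factors recognise, searched here as GAAA, any 2 bases and GAAA again, on both strands within 300 bases around the start. Of all 10354 tested genes with a RefSeq promoter, 3.15% held it. Of 31 effectors with a promoter, 17 (54.8%) did, as did 9 of 9 GTPases, which include close paralogues, and 15.1% of the genes that rose at least 2-fold. Those rises include 26 of the effectors tested and 10 of the GTPases tested, so these shares overlap. Other letters were searched as well. The AP-1 letters TGA, any base and TCA were in 14.1% of those rises, against 5.4% of all genes. They were in 25.8% of the effectors and 33.3% of the GTPases. Ifi205, a PYHIN gene that rose by 1.82 ± 0.46, and Gbp2, which rose by 2.02 ± 0.40, are shown with the 250 bases before the start in GRCm38.p6 (chr1:174031756-174032005, minus strand, and chr3:142620413-142620662, plus strand), with the match in capitals.
Ifi205: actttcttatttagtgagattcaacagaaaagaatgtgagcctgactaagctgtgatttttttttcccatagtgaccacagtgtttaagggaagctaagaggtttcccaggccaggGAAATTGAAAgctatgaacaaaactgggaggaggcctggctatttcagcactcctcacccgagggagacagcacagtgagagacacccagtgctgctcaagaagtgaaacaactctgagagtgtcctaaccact
Gbp2: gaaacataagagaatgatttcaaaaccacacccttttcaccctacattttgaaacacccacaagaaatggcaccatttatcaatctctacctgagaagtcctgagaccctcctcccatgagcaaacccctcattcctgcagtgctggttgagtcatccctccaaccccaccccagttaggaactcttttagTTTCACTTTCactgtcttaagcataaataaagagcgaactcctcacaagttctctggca
The match begins at position -134 from the start in Ifi205 and at -59 in Gbp2. A match is a description of the letters only.

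Antigen presentation genes rose too, with 13 of 19 members higher, 0 lower (also unadjusted) and a median of 0.55. Tap1, a peptide transporter subunit, had 2.88, 2.49 and 2.65 on the 5 h arrays, against 1.04, 0.97 and 1.30 on the 3 h arrays, and rose by 1.57 ± 0.11; its partner Tap2 rose by 1.46 ± 0.18. The immunoproteasome subunits Psmb9 and Psmb8 rose by 0.92 ± 0.08 and 0.83 ± 0.08. The class II genes tested did not pass: H2-Ab1 had 0.18 ± 0.50, H2-Eb1 0.15 ± 0.31, and Cd74 0.07 ± 0.08. Of the pattern recognition genes, 14 of 28 rose and 1 fell, the fall being Tlr2 by 0.37 ± 0.10, a call lost without replicate 1 (adjusted p = 0.12) and without replicate 2 (adjusted p = 0.059). Tlr3, which binds double-stranded RNA, had -1.59, -2.07 and -1.79 on the 5 h arrays, against -3.47, -4.06 and -4.00 on the 3 h arrays. Complement and acute-phase genes had 11 of 27 (40.7%) higher and 3 (11.1%) lower, against 13.8% and 15.4% of all genes. The lipocalin gene Lcn2 rose by 2.20 ± 0.46.

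The factors of the first wave showed a second rise in part. Of 23 immediate early factors, 13 were higher at 5 h and 4 lower, the median being 0.55, and 20 had been above 0 h at 1 h, against 6.81% of all genes. Nr4a1, an orphan nuclear receptor (probe at mm9 chr15:101105071-101105130), had 6.05, 6.29 and 6.25 on the 5 h arrays, against 3.82, 3.81 and 3.33 on the 3 h arrays; its means were 2.54 at 0 h, 9.55 at 1 h, 3.65 at 3 h and 6.19 at 5 h. Nr4a2 had 1.35, 1.44 and 1.46 on the 5 h arrays, against -1.64, -0.82 and -1.27 on the 3 h arrays, with means of -1.73 at 0 h, 2.96 at 1 h, -1.25 at 3 h and 1.42 at 5 h. Fos, an AP-1 subunit, had means of 0.62 at 0 h, 4.19 at 1 h, 1.32 at 3 h and 2.60 at 5 h, and Egr1, a zinc finger factor, 0.28 at 0 h, 6.73 at 1 h, 1.35 at 3 h and 2.85 at 5 h. Both were higher at 5 h than at 3 h, while staying below the 1 h peak. Jun, the partner of Fos, rose by 1.12 ± 0.07 but had stood below its 0 h level at both times, with means of 0.25 at 0 h, 3.09 at 1 h, -2.85 at 3 h and -1.73 at 5 h. Egr2 and Egr3 kept falling, by 0.90 ± 0.18 and 1.98 ± 0.15. Jund fell by 0.75 ± 0.09 and Maff by 0.59 ± 0.14. Junb (-0.21 ± 0.11, interval -0.45 to 0.03) and Klf2 (0.28 ± 0.11, interval 0.05 to 0.51) were held.

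Inhibitors and subunits of NF-kB were lower in part. Of 21 tested, 11 fell and 1 rose, with a median of -0.36. At 3 h 20 had been above 0 h, where 24.5% of all genes were. Without the slide block 7 fell and 0 rose, with the 6 arrays alone 6 fell and 0 rose, and the single rise was lost without any 1 of the replicates. Tnfaip3, which encodes A20, a ubiquitin-editing brake on the pathway, had 4.69, 4.82 and 4.88 on the 5 h arrays, against 6.12, 6.07 and 5.97 on the 3 h arrays and means of -1.16 at 0 h, 7.13 at 1 h, 6.05 at 3 h and 4.80 at 5 h. Relb fell by 0.96 ± 0.08, the A20 partner Tnip1 by 0.66 ± 0.07 and Nfkbia, which encodes IkB alpha, by 0.59 ± 0.09. All 4 remained above 0 h at 5 h. For Nfkb1 the probes disagreed. 1 was level at a log2 of 0.03, and the others were at -0.63, -0.40 and -0.47, of which only the last was called. Tnf, the cytokine, had 6.27, 5.93 and 5.99 on the 5 h arrays, against 6.97, 6.88 and 7.02 on the 3 h arrays and fell by 0.89 ± 0.09 (adjusted p = 4.0e-06). The promoter of Tnfaip3 (chr10:19015411-19015660, minus strand) is shown because its NF-kB-like letters (GGGA, any 3 bases, CCC, either strand) occur in 5 of 16 promoters of this list and 6.9% of all.
Tnfaip3: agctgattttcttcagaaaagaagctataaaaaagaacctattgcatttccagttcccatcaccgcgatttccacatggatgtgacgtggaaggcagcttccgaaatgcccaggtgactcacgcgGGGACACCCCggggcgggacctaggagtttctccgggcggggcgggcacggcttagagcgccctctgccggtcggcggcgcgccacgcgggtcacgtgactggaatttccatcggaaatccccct

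Cytokines were higher in 10 of 22 (45.5%) and lower in 4 (18.2%), against 13.8% and 15.4% of all genes. Il6 had 5.13, 5.37 and 5.44 on the 5 h arrays, against 3.95, 3.93 and 3.66 on the 3 h arrays, and rose by 1.46 ± 0.25 (adjusted p = 3.5e-04). Csf3, which encodes G-CSF, rose by 1.81 ± 0.36, Osm by 1.78 ± 0.14 and Il1rn, the interleukin-1 receptor antagonist gene, by 1.70 ± 0.14. Il1b, already at 9.52, 9.60 and 9.51 at 5 h and 9.42, 9.32 and 9.03 at 3 h, differed by 0.29 ± 0.25 (adjusted p = 0.45), and Il10 by -0.21 ± 0.20 (adjusted p = 0.48), so neither passed the test. Of 18 chemokines 9 (50%) rose and 2 (11.1%) fell, while 5 rose without replicate 3 and 1 fell without the slide block. Ccl12 rose by 1.61 ± 0.27, Cxcl11 by 1.44 ± 0.25 and Ccl7 by 1.27 ± 0.31, while Cxcl16 fell by 0.81 ± 0.18. Cxcl10, a ligand of CXCR3, was at 8.42, 8.48 and 8.64 at 5 h and 8.44, 8.40 and 8.20 at 3 h, a difference of 0.17 ± 0.09 (adjusted p = 0.19), and Ccl4 was held at -0.01 ± 0.10. Nos2, inducible nitric oxide synthase, had -2.63, -2.39 and -2.09 on the 5 h arrays, against -4.67, -4.87 and -4.08 on the 3 h arrays, and rose by 2.17 ± 0.21; at 3 h only 1 of its arrays was well above background. Of 18 enzymes of nitric oxide, itaconate and amine metabolism 11 rose and 0 fell (0 also unadjusted), and 6 rose without the slide block. Hdc, histidine decarboxylase, rose by 1.79 ± 0.15, and Acod1, which makes itaconate, was held at 0.11 ± 0.12 (interval -0.16 to 0.37).

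Enzymes of prostaglandin and other lipid mediators fell in 9 of 16 and rose in 3, with a median of -0.50; the rises were 1 without replicate 3 and 0 without the slide block. Hpgds, which makes prostaglandin D, had -2.44, -2.54 and -2.17 on the 5 h arrays, against -0.30, -0.20 and -0.10 on the 3 h arrays, and the constitutive cyclooxygenase gene Ptgs1 had -0.15, -0.19 and -0.32 on the 5 h arrays, against 1.67, 1.68 and 1.32 on the 3 h arrays. In both, which were named as falls, all 5 h arrays were below all 3 h arrays. The inducible Ptgs2 rose by 0.49 ± 0.09. Of 35 genes of cholesterol and fatty acid synthesis 14 fell and 3 rose, with 6 falls when the 6 arrays were fitted alone, and with 1 rise without replicate 2 and 0 without replicate 3. An example is the fatty acid elongase gene Elovl6, which fell by 0.94 ± 0.11. For Stard4 the probes disagreed in sign. Costimulatory and checkpoint genes split, 7 of 14 higher and 6 lower. Cd86, a ligand of CD28, rose by 1.67 ± 0.24, while Icosl fell by 1.62 ± 0.17 and Tnfsf9, the 4-1BB ligand gene, by 1.56 ± 0.10.

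Amino acid and stress-response genes rose in most of their list. Of 23 targets of ATF4 and CHOP, 17 were higher and 0 lower (0 also unadjusted), with a median of 0.53, and 11 were higher when the 6 arrays were fitted alone. Ddit3, which encodes CHOP, had 0.30, 0.13 and 0.25 on the 5 h arrays, against -1.23, -1.28 and -1.41 on the 3 h arrays. Chac1, which degrades glutathione, had 3.56, 3.72 and 3.79 on the 5 h arrays, against 3.14, 2.73 and 2.19 on the 3 h arrays, and Asns, asparagine synthetase, rose by 0.75 ± 0.15. Ddit4, an inhibitor of mTORC1, rose by 1.43 ± 0.15. The unfolded protein response list had 5 of 24 higher, 0 lower (7 and 1 unadjusted) and 21 held. Those higher made up 20.8%, against 13.8% of all genes. Without replicate 3 the counts were 3 higher and 1 lower, without the slide block 3 were higher, and with quantile normalization 2 were lower. Hspa5, an ER chaperone gene, was held at 0.13 ± 0.06 (interval 0.00 to 0.26). Asns has TGATGNAA in the 250 bases before its start (chr6:7693210-7693459, minus strand), letters that 28.6% of the ATF4 list and 2.47% of all genes hold within 300 bases. It is shown with the match in capitals.
Asns: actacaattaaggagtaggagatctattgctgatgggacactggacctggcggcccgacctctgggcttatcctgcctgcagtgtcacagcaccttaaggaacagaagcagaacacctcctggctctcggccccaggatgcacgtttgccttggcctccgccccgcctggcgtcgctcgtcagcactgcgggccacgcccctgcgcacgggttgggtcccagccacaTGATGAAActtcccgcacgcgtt

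Genes of DNA synthesis fell in most cases. Of 53 genes of DNA replication and mitosis, 32 (60.4%) fell and 1 rose, with a median of -0.71, and 47 had been below 0 h at 3 h, against 24.5% of all genes. The single rise was lost without the slide block. Fewer cells expressing these genes and less RNA per cell cannot be told apart in these bulk samples. Ccne2, a cyclin of the entry into S phase, had -1.71, -2.03 and -1.94 on the 5 h arrays, against 0.18, -0.28 and 0.04 on the 3 h arrays. Rrm2, the small subunit of ribonucleotide reductase, had 1.10, 0.94 and 0.95 on the 5 h arrays, against 2.62, 2.42 and 2.25 on the 3 h arrays. Mcm7, of the replicative helicase, had 4.61, 4.16 and 4.27 on the 5 h arrays, against 5.87, 5.42 and 5.58 on the 3 h arrays. No array at 5 h reached the lowest at 3 h for these genes, which were named as falls. The licensing factor gene Cdc6 fell by 1.34 ± 0.11 and Uhrf1, which maintains DNA methylation, by 1.41 ± 0.06. The mitotic genes Cdc20 (-0.08 ± 0.11) and Cenpe (0.02 ± 0.18) were held, Bub1 fell by 0.48 ± 0.11, and the mitotic kinase gene Plk1 rose by 0.40 ± 0.07. The E2F-like letters TTTCCCGC were found in 11.6% of the list against 2% of all promoters. Mcm7 (chr5:138171884-138172133, minus strand) is shown with them in capitals.
Mcm7: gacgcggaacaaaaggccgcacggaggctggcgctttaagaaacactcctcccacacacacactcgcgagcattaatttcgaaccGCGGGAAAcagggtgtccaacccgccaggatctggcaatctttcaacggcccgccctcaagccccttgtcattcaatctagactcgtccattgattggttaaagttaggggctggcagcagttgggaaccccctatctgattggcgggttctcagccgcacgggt

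**Figure D4:**
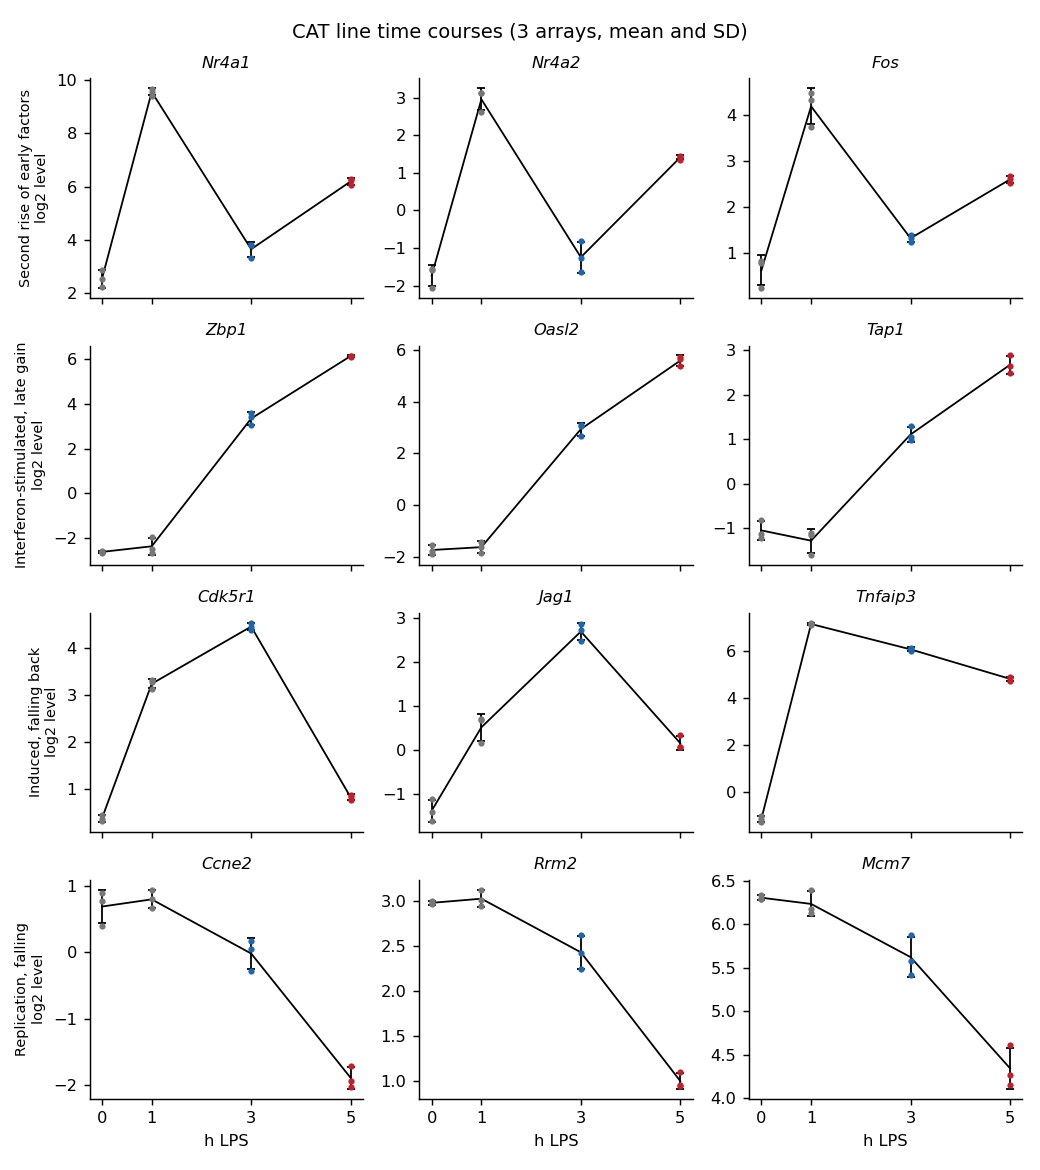
Mean level and SD over 3 CAT arrays at 0, 1, 3 and 5 h of LPS with each array as a point, for 12 genes in rows of second rises, late interferon-stimulated gains, falls after induction and replication genes; red points are 5 h, blue 3 h. Panels have their own vertical axis. The Nr4a1 mean is 6.19 at 5 h against 3.65 at 3 h.

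Several metabolic lists were mostly held. All 29 respiratory chain genes tested were held, and Cycs, 1 of them, was also called, at 0.27 ± 0.08. Of 22 genes of the tricarboxylic acid cycle 21 were held. In that list 3 were called lower, Idh1 by 0.66 ± 0.12, and 1 higher, or 6 lower and 0 higher with quantile normalization. Ribosome biogenesis had 30 of 34 held, with 3 called higher and 3 lower. Translation factors had 19 of 22 held, with 3 called higher and 0 lower. Across all genes 52.2% were held. Macrophage genes are the check of the cell type. Of the 28 listed, 26 were tested; 25 were well above background on all 5 h arrays and 26 on all 3 h arrays, Lyz2, Cd68, Adgre1 and Csf1r among them. Their summed signal relative to the array's 75th percentile was 3199.9 to 3375 at 5 h against 2485 to 3064 at 3 h. The Fc receptor gene Fcgr1 rose by 2.24 ± 0.13 and Csf1r fell by 0.50 ± 0.06. Markers of other cells had far lower sums, over the listed members that were tested. They were 50.7 to 53.5 at 5 h and 63.0 to 80.0 at 3 h for 10 of 11 osteoclast genes, and 5.96 to 7.32 and 4.13 to 5.04 for 4 of 9 dendritic cell genes. Among those 4, 1 was called higher (Itgax, by 0.66 ± 0.11) and 1 lower, and with the mean of probes 0 were higher. For 5 of 11 T and NK cell genes they were 3.08 to 3.28 and 2.55 to 2.70, with Lck rising by 1.37 ± 0.10, and for 4 of 8 B cell genes, mostly Ighm, 8.12 to 8.38 and 8.69 to 12.7. They were 0.564 to 0.654 and 0.497 to 0.703 for 6 of 14 granulocyte, mast and erythroid genes, and 1.23 to 1.45 and 0.768 to 1.36 for 5 of 14 fibroblast, epithelial and endothelial genes. Their part in the results was not tested.

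The same interval in the Tbc1d23 line had 224 genes higher (1.49%) and 307 lower (2.04%). The Tbc1d23 arrays differed in quality: probes well above background made up 62.3, 52.7 and 52.9% of probes on the 5 h arrays, against 49.4, 47.5 and 51.4% on the 3 h arrays, and the 5 h array of replicate 1 stood apart. Without replicate 1 of that line, left out after seeing the data, 93 genes were higher and 131 lower. The part of this quality difference in the results was not tested further. The difference between the lines was tested as the Tbc1d23 change minus the CAT change. It was positive for 1161 genes (7.72%) and negative for 1090 (7.25%). Without the slide block the counts were 452 and 473, and without replicate 1 of the Tbc1d23 line 785 and 801. For interferon-stimulated effectors the median change was -0.03 in the Tbc1d23 line and 1.21 in the CAT line, and the difference was negative for 27 of 42 genes and positive for 1. For ATF4 and CHOP targets it was negative for 15 of 23 (9 without that replicate), for antigen presentation 11 of 19, and for immediate early factors 15 of 23. For replication and mitosis it was positive for 23 of 53 and negative for 4. Nod1 changed by -0.01 in the Tbc1d23 line against 3.09 in the CAT line (difference -3.09 ± 0.26, adjusted p = 2.3e-06 by limma). It was picked for its rise in the CAT line, and that choice leans this difference toward negative and its p toward small. Egr1, with the CAT means given above, changed by -3.13 in the Tbc1d23 line (difference -4.62 ± 0.16, adjusted p = 9.1e-10), and Il6 by -0.69 against 1.46 (difference -2.15 ± 0.35, adjusted p = 5.7e-04). Fos changed by 1.06 against 1.28, a difference that did not pass (-0.22 ± 0.19, adjusted p = 0.54).

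**Figure D5:**
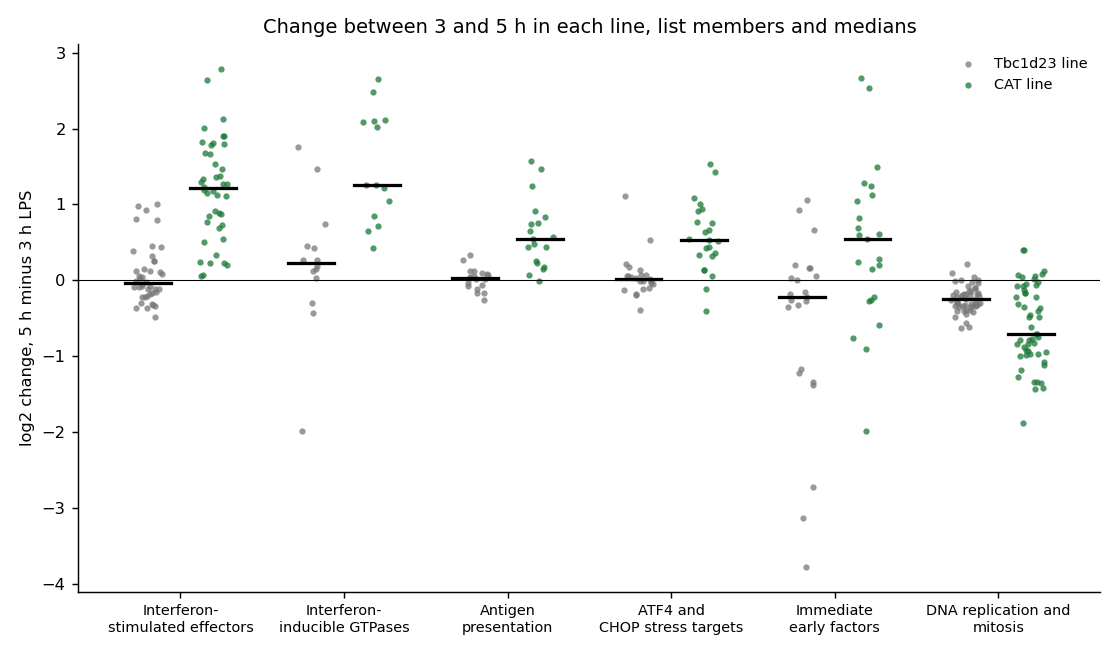
Log2 change 5 h minus 3 h of each list member in the Tbc1d23 line (grey, left) and the CAT line (green, right), with the median of each list as a bar. Interferon-stimulated effectors have a median of -0.03 in the Tbc1d23 line and 1.21 in the CAT line.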

How the data were processed

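One-colour Agilent arrays were read from the deposited scanner files of all 24 samples. Per the file headers, Feature Extraction 10.7.1.1 by Agilent wrote a spot intensity, and its processed signal is background-subtracted, with low values replaced by surrogates. A deposited table holds values on a log2 scale, found from the values and not stated. RMA and Partek also stand in the submitters' processing notes, with no role given. This table was an alternative only.

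Control spots and outliers were left out, spots of a probe averaged (40988 probes), and the log2 of the signal was taken minus the array's 75th percentile. A probe had to be well above background throughout 1 group or more, which left 21852, and a gene was represented by its brightest probe (15032 genes). Through RefSeq accessions 25138 probes got their current symbol, and probe coordinates are mm9, per the files. limma 3.58.1 in R 4.3.3 fitted 8 group means and the slide as a block (12 residual degrees of freedom). The slide pairs the replicate numbers: the deviations of same-numbered 5 h and 3 h arrays correlated at 0.504, 0.644 and 0.618. The fit was tested on simulated data. With 3 arrays against 3, the smallest exact permutation p is 0.1, so no such test was run.

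Genes were named by a rule: symbols called, well above background on all 6 arrays and changed alike on all 3 slides, the 12 largest each way; 5 bounds each way; up to 3 rises, 3 falls and 2 held genes per list; and a few cytokine markers. Further list members were named after their values were seen, and a few genes that the rule names are not reported here. The members and lists were chosen with earlier results of these data known. Promoters are from RefSeq, GRCm38.p6. The number of arrays limits the precision. Alternatives were other scalings, filters, probe rules, blocks, the deposited values and leaving out each replicate.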

Additional observations from a re-analysis of the deposited data

Results flagged for a closer look

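The change from 3 to 5 h differed between the lines by the limma interaction test (adjusted p under 0.05), coded as the Tbc1d23 change minus the CAT change on the log2 scale. It was higher in the Tbc1d23 line for 1161 genes and lower for 1090. Genes named for the size of their change or as bounds were picked on the CAT change, which this difference subtracts. That choice alone leans picked rises toward negative and picked falls toward positive differences. Among these genes and the cytokine markers, the difference was negative, with less of a rise or more of a fall in the Tbc1d23 line, for Cd200r1 (-2.76), Cfb (-2.44), Cxcl10 (-1.95), Fgd4 (-2.34), Ifi206 (-1.53), Ifi209 (-2.76), Il6 (-2.15), Ms4a4c (-2.74), Nod1 (-3.09), Nos2 (-1.55), Nr4a1 (-2.8), Nr4a2 (-1.73), Oasl2 (-2.72), Scimp (-2.29) and Zbp1 (-2.39). The difference was also negative for Tbc1d23 (-0.67), named only for the label check. It was positive for Arhgap24 (1.75), Bcor (2.52), Cdk5r1 (2.5), Dgkg (1.68), Enc1 (2.41), Fry (2.68), Hdac9 (1.86), Ifnb1 (1.28), Jag1 (2.23), Mab21l3 (3.74), Oit3 (1.65), Plat (1.83), Plxna2 (1.97), Ranbp3l (3.08), Tmem37 (2.19) and Tnf (0.55). With 1 line per construct, a difference between the lines cannot be told apart from a difference between 2 cell lines. Slides hold 1 line each, so slide and line are joined as well, and the change is taken within slides.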

How the results depend on the processing

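Leaving the slide out of the fit (no replicate block) and fitting the 6 arrays alone lowered the counts, and no named gene turned sign in either. Without the block 1016 genes were higher and 1285 lower, and the difference between lines was positive for 452 and negative for 473. With the 6 arrays only the counts were 1135 and 1195. For the genes lower at 1 h, 25 rose and 12 fell without the block, 27 and 12 with 6 arrays. For the lastingly lower genes, 118 rose without the block and 121 with 6 arrays, and for the lastingly higher genes 140 fell without the block. Lists with most of their members called in 1 direction numbered 6 under both, against 10. With no filter the difference between lines was positive for 770 genes, and of the genes lower at 1 h 32 rose and 15 fell. The normexp background correction on raw signals failed to fit on 5 arrays, 1 of them among the 6 compared, and gave 66 and 105 genes, 48 and 73 of them at least 2-fold; it says nothing about the results. A repaired version, chosen after seeing the data, gave 213 and 126 genes at least 2-fold, 11 falls among the genes lower at 1 h and 12730 held genes. Leaving out each replicate gave 1494 to 1839 genes higher, 1601 to 2182 lower, 6626 to 7032 held, 6 to 7 such lists, 33 to 40 rises and 13 to 27 falls among the genes lower at 1 h; the lowest of these falls and lists came without replicate 1 and without replicate 2 alike. The calls of Cycs and Ighm were lost without 2 of the 3 replicates, that of Ccl7 without replicate 3. Without the block 57 of the named genes lost their call, Csf1r, Cxcl16, Cycs, Ighm, Plk1, Ptgs2, Stard4, Tap2, Tbc1d23, Tlr2 and Tnip1 among them. Of 262 named genes 201 were called, 128 of them under each of the 14 settings run for genes. The sign turned for Cyp51 (-0.16) and Stard4 (-0.15) with the mean of probes and for Ifi206 (-0.51) with no filter. The cause was not tested. Signal over background limits the dim genes, since 48.8 to 53.1% of probes passed that mark in the 6 arrays.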
